A study of Homo sapiens with 12 samples.

Results

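The genes that carry glucose through glycolysis, back out through gluconeogenesis, sideways into the pentose phosphate pathway and into storage as glycogen were examined as a single metabolic module in HepG2 cells. The members were chosen by symbol from a list of 53 enzymes and their regulators, and 51 of them were among the 16389 genes of the count table. The rule held no measured value, but earlier results of these data were known when the list was made. LDHB and GYS2 were not analysed here. Transcript levels came from RNA-seq of HepG2, an established line derived from a human liver tumour, which is proliferating and so is a model of hepatocytes only in part. The study asked how a high glucose medium and valproic acid (VPA), an inhibitor of class I and IIa histone deacetylases, alter the transcriptome of these cells. Libraries were sequenced for 4 groups of 3: LG (5.5 mM glucose), HG (20 mM glucose for 48 h), LGV (the LG condition followed by 1 mM VPA for 12 h) and HGV (the HG condition followed by the same VPA treatment). No genotype differs between the groups, since all are the same unmodified line. Whether the 3 libraries of a group came from separate cultures is not stated, so the p-values measure the spread between these libraries, which may be technical. The VPA groups had 12 h more than the 48 h given for HG, and whether the untreated cells were kept for the same total time is not given in the sources used here, so time in culture and VPA cannot be told apart.

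Glycolysis converts glucose to pyruvate, and gluconeogenesis runs the reversible steps backwards while other enzymes bypass the irreversible steps at hexokinase, phosphofructokinase and pyruvate kinase. The liver is known for holding both sets of enzymes in the same cell, for storing glucose as glycogen and for releasing it through glucose-phosphatase, while the pentose phosphate pathway supplies NADPH and ribose. Many steps have several isozymes, and a tumour-derived liver line commonly carries isozymes of other tissues beside those of liver.

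Library totals ran from 29798442 to 45572694 counts, and 3 reads, the floor used here, correspond to 0.0713 to 0.112 CPM, the count scaled to a common library size with TMM factors. The LG libraries stood further apart from each other than the other groups did in this module, as 8 members (PFKFB3, PFKFB4, ALDOC, PKLR, PDK1, PCK2, GYS1 and PYGM) differed more than 2-fold within LG, against 1 in HG (PKLR), 0 in LGV and 3 in HGV (PGAM1, FBP1 and PYGM). LG replicate 2 was the lowest of its group for 30 of 51 members and LG replicate 3 the highest for 32. Such an order was not particular to LG. HG replicate 1 was the lowest for 34 and HG replicate 2 the highest for 27, and HGV replicate 1 was the lowest for 31 and HGV replicate 2 the highest for 25. The median ratio of the highest to the lowest library was 1.3 in LG, 1.23 in HG, 1.18 in LGV and 1.26 in HGV. The 8 hepatocyte-like markers (ALB, AFP, APOA1, APOA2, TTR, SERPINA1, FGB and HNF4A) were all in the table and summed to 40700 to 45300 CPM in LG, 40800 to 47100 in HG, 31400 to 32400 in LGV and 37100 to 47800 in HGV. ALB made up most of each sum, so the sums say little of the others. At an FDR of 0.05 or less, 2 markers were higher and 1 lower in HG against LG, and 3 and 1 in HGV against LGV. In HGV against HG 1 was higher and 3 lower, and in LGV against LG 0 and 5. The shares of all genes are given with each comparison below. Markers of leukocytes, endothelium and fibroblasts summed to 2.95 to 3.85 CPM in LG, 2.99 to 4.57 in HG, 4.62 to 5.82 in LGV and 6.9 to 7.75 in HGV, from the 3 of 9 that were in the table, and PTPRC, CD3E, PECAM1, DCN, LUM and COL1A2 were not among its genes. CPM is a share of the RNA in a bulk culture, so fewer cells of a type and less RNA per cell cannot be told apart.

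**Figure D1:**
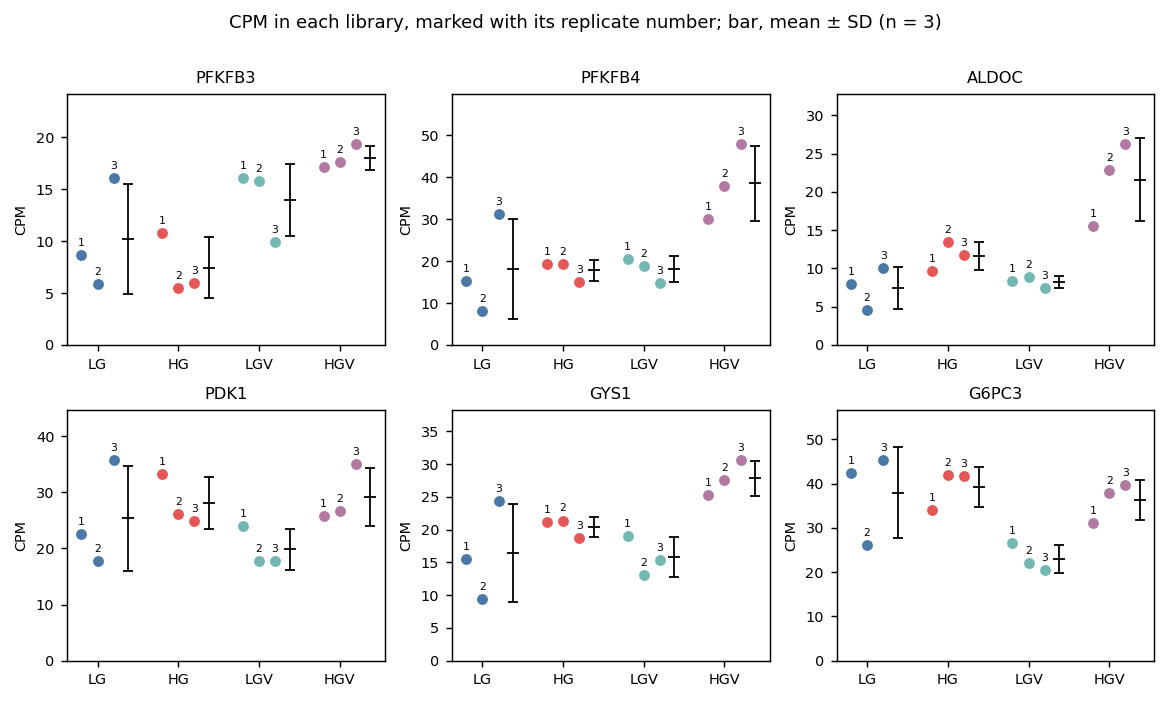
CPM (linear axes from 0) of PFKFB3, PFKFB4, ALDOC, PDK1, GYS1 and G6PC3 in each library, by group, with the replicate number above each point and the group mean ± SD (n = 3) at its right. LG replicate 2 lies lowest and LG replicate 3 highest in LG for all 6, from 8.06 to 31.2 CPM for PFKFB4 and from 4.57 to 10 CPM for ALDOC.

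High glucose moved members in both directions. Values given for differences are log2 fold changes with their standard error. In HG against LG, 10 of the 50 members tested were higher and 9 were lower at an FDR of 0.05 or less (edgeR quasi-likelihood F test, Benjamini-Hochberg over all genes tested), beside 12.0% higher and 12.7% lower among all 15452 genes tested. Leaving out 1 library gave 4 (without LG replicate 2) to 14 (without LG replicate 3) higher and 4 (without HG replicate 3) to 10 (without LG replicate 2) lower, and an FDR of 0.01 gave 4 and 5. The members' shares were 20% and 18%, and their median log2 fold change was -0.05 against 0.01 over all genes. PYGM had a mean below 10 reads in these libraries, the filter used, and was not tested. PDK4, among the 10 higher, passed this filter only through the HG libraries, so it could be tested only by being higher. In HGV against LGV, 15 of 51 members were higher (29.4%) and 6 were lower (11.8%), beside 21.2% and 19.5% of 16208 genes, with a median of 0.08 against 0.01. The 6 lower became 3 without LGV replicate 2 or 3, 4 without HGV replicate 1 or 3, and 3 at an FDR of 0.01. These comparisons share no library. Higher in both were 8 members, namely GCKR, ALDOC, PKLR, PDK2, G6PC, PCK1, PCK2 and KHK, and lower in both were 4, namely HK1, PFKFB2, UGP2 and PYGB, while 0 were called in opposite directions. The share of all genes called in both was not counted, so these counts do not show a trait of the module. The log2 fold changes of 32 of 50 members had the same sign in both media pairs (64.0%), beside 80.0% of all 15271 genes tested in both.

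VPA also moved members in both directions. The balance of calls differed between the media, but the calls come from separate fits and the difference in balance was not tested. In HGV against HG, 16 of 51 members were higher (31.4%) and 10 were lower (19.6%), beside 25.8% and 20.2% of all 16188 genes tested, with a median log2 fold change of 0.18 against 0.03. In LGV against LG, 6 were higher (11.8%) and 20 were lower (39.2%), beside 21.7% and 19.9% of 15944 genes, with a median of -0.11 against -0.01. The shares of all genes, here and below, were not matched for expression level. For VPA in high glucose, the paper describes weakly expressed genes as rising and abundant genes as falling. The part of expression level in these counts was not tested. HK1, PFKP, ENO2, PDK3, PDK4 and PGM2 were higher with VPA in both media. The 6 higher in LGV against LG include PDK4, and the 16 higher in HGV against HG include PYGM. Each passed the filter of a mean of 10 reads there only through the VPA-treated libraries, so it could be tested only by being higher. PKLR, G6PC, PCK2, PC, PGLS, PGD, RPIA, PGM1, GBE1 and PYGL were lower in both, and 0 members were called in opposite directions. Again no library is shared, and the sign was the same for 40 of 51 members (78.4%), beside 81.9% of 15743 genes. PFKFB1, PGK1, ENO3, PKM, RPE and TKT were not called in any of the 4 comparisons, and HK1, PKLR, G6PC and PCK2 were called in all 4. The shares of all genes called in both media, in none or in all 4 comparisons were not counted.

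The split between higher and lower calls depended on the scaling. Without TMM factors, scaled by library size only, the median log2 fold change over all genes was 0.11 in HG against LG, 0.10 in HGV against LGV, 0.16 in LGV against LG and 0.15 in HGV against HG. The share of calls that were higher then moved from 48.6% to 62.6%, from 52.2% to 62.0%, from 52.1% to 69.7% and from 56.1% to 68.1% over all genes in the same order. Among members the shares moved from 52.6% to 60.0%, from 71.4% to 78.3%, from 23.1% to 31.8% and from 61.5% to 68.8%. The direction of every member called with TMM factors stayed the same.

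**Figure D2:**
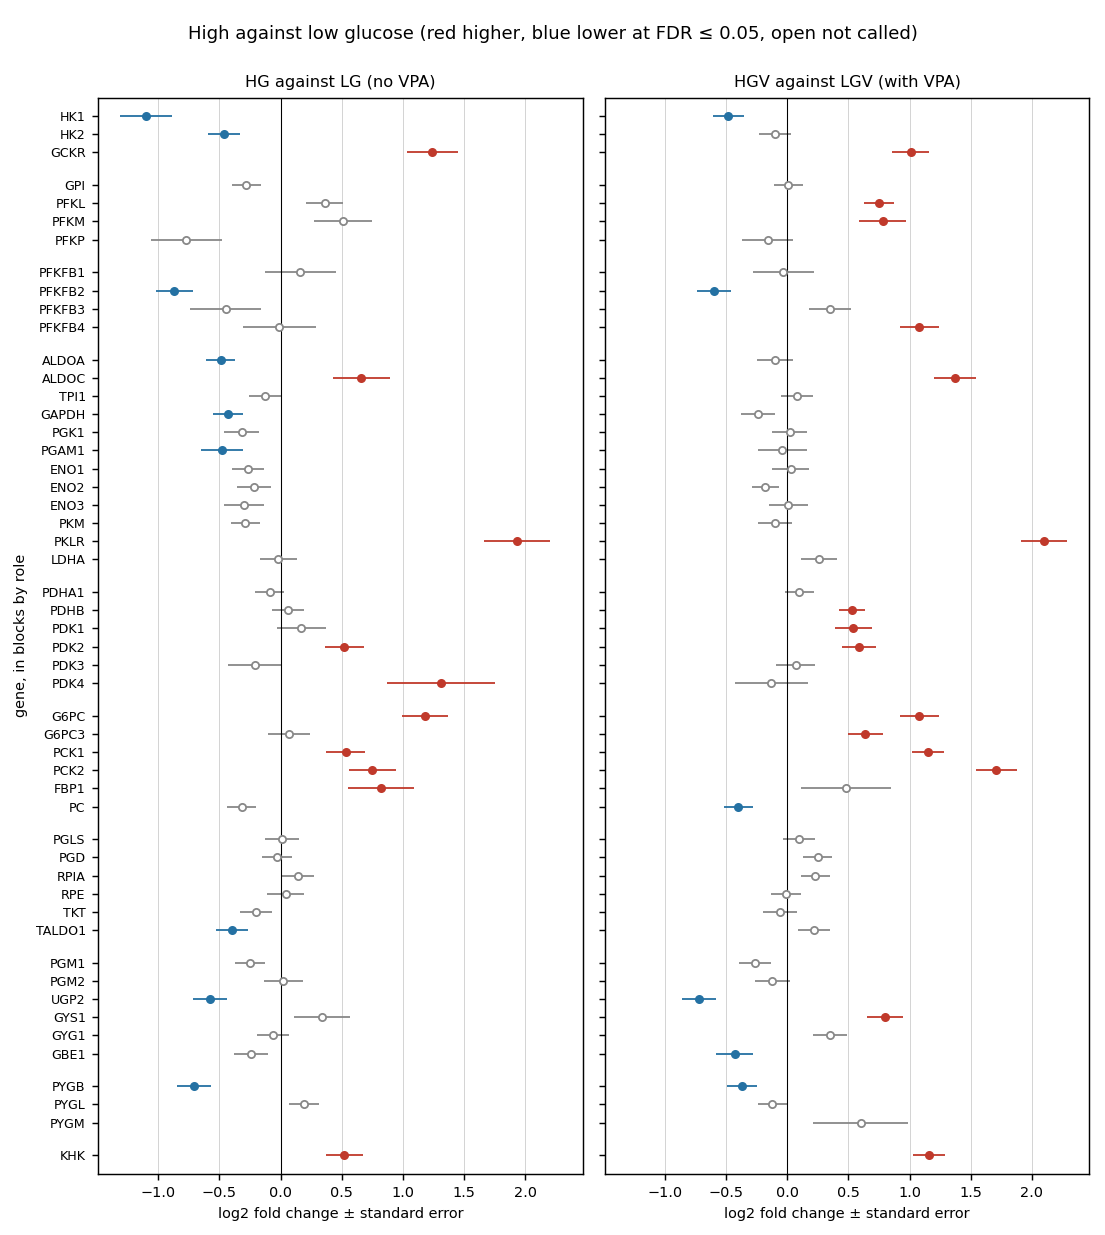
Log2 fold change with its standard error for each member in HG against LG and in HGV against LGV, in blocks by role. Filled red points are higher and filled blue points lower at FDR 0.05 or less; PKLR lies furthest right in both panels (1.93 and 2.10) and HK1 (-1.10) furthest left in the panel without VPA.

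**Figure D3:**
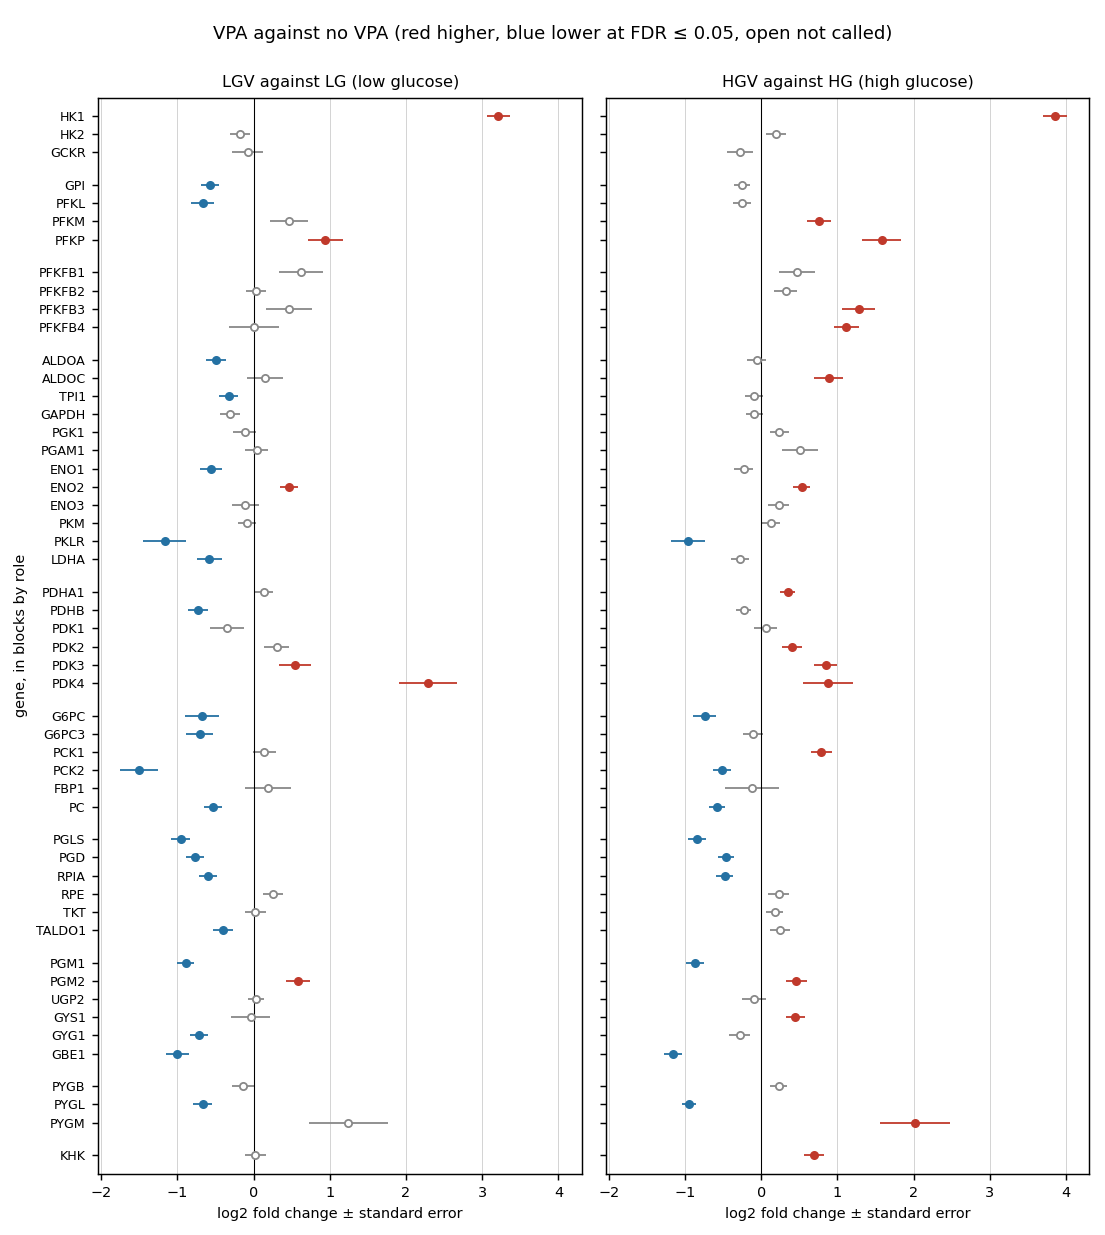
Log2 fold change with its standard error for each member in LGV against LG and in HGV against HG, drawn in the same way. HK1 lies furthest right in both panels (3.21 and 3.86), and the blue points in both panels include PGLS, PGD, RPIA, PGM1, GBE1 and PYGL.

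The first step, the phosphorylation of glucose, held the largest change of the module. HK1, the hexokinase found in most tissues (chr10:71029740-71161640, GRCh37), was measured at 6.06, 6.64 and 5.85 CPM in LG, 2.35, 2.99 and 3.16 in HG, 47.7, 63 and 60.3 in LGV and 42.4, 45.6 and 36.3 in HGV. Its 6 VPA-treated libraries lay between 36.3 and 63.0 CPM, all above the 6 untreated ones, and within the untreated libraries HG lay below LG. The log2 fold change with VPA was 3.21 (standard error 0.15, FDR 4.06e-09) in low glucose and 3.86 (standard error 0.16, FDR 8.58e-09) in high glucose, or 9.28-fold and 14.6-fold. HK1 was lower with high glucose, at -1.10 (standard error 0.21, FDR 0.000917) without VPA and -0.48 (standard error 0.13, FDR 0.00838) with it. HK2, the hexokinase typical of muscle and of tumours, was the more abundant of the pair per kilobase of exon, with 98.1% to 98.7% of their summed level in LG. HK1 held 1.26% to 1.85% in LG, 0.72% to 1.2% in HG, 12.4% to 15.4% in LGV and 9.1% to 14.3% in HGV. HK2 itself was 335 ± 51.6 CPM (SD, n = 3) in LG and 241 ± 33.1 CPM (SD, n = 3) in HG, a difference of -0.46 (FDR 0.0188). The call was lost without HG replicate 2, HG replicate 3 or LG replicate 1 and with library size scaling (highest FDR 0.143).

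GCKR encodes the regulatory protein that binds and restrains the liver hexokinase (chr2:27719706-27746551, GRCh37). Its values were 10.3, 7.21 and 11 CPM in LG, 16.2, 28.2 and 21.6 in HG, 9.96, 7.37 and 9.37 in LGV and 18.9, 17.8 and 17.7 in HGV. All HG libraries lay above all LG libraries and all HGV above all LGV, with log2 fold changes of 1.24 (standard error 0.21, FDR 0.000307) and 1.01 (standard error 0.15, FDR 5.81e-05). The VPA-treated and untreated libraries overlapped in each medium (FDR 0.777 in low glucose and 0.202 in high glucose).

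**Figure D4:**
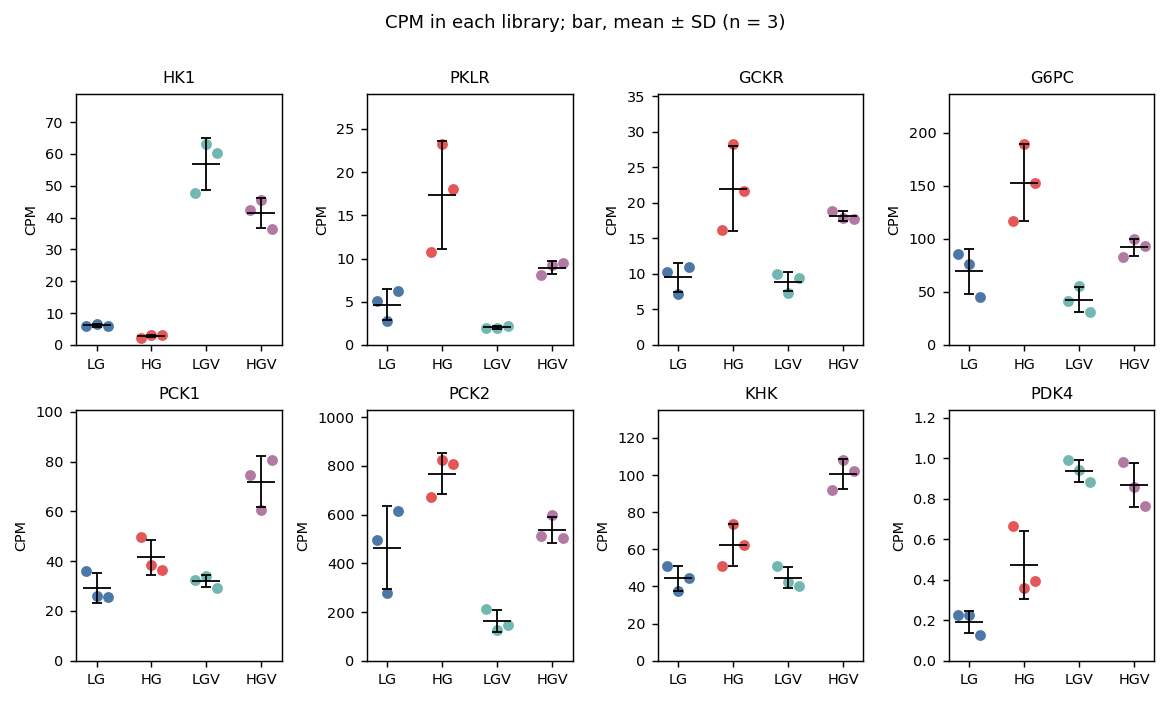
CPM (linear axes from 0) of HK1, PKLR, GCKR, G6PC, PCK1, PCK2, KHK and PDK4 in the 12 libraries, with a point for each library and a bar for the group mean ± SD (n = 3). HK1 separates the VPA-treated libraries (36.3 to 63.0 CPM) from the untreated ones (2.35 to 6.64 CPM), and PKLR separates the media in both VPA states.

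Glucose phosphate isomerase and the phosphofructokinases take the sugar to the commitment point of glycolysis. GPI was lower with VPA in low glucose, at -0.57 (FDR 0.00142), and was not called in the other comparisons. Among the phosphofructokinases PFKL, the liver subunit, held 94.4% to 95.1% of the family's level per kilobase in LG and 87% to 88.6% in LGV. Its values were 116, 76.6 and 118 CPM in LG, 114, 145 and 134 in HG, 67.8, 60.4 and 65.7 in LGV and 96.1, 115 and 119 in HGV. The 3 LGV libraries were the lowest of the 12, at -0.67 (standard error 0.15, FDR 0.00282) against LG, and HGV lay above LGV by 0.75 (standard error 0.12, FDR 0.000131).

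PFKP, the platelet subunit, was measured at 2.21, 1.75 and 1.61 CPM in LG, 0.729, 1.32 and 1.12 in HG, 3.66, 3.51 and 3.36 in LGV and 3.31, 3.69 and 2.5 in HGV. VPA-treated libraries were above untreated ones in both media, by 0.94 (standard error 0.23, FDR 0.00399) and 1.58 (standard error 0.25, FDR 0.000261). The difference of HG against LG was -0.77 (standard error 0.29, FDR 0.0546), just over the threshold. PFKM, the muscle subunit, stood at 3.4, 2.07 and 3.42 CPM in LG, 3.49, 4.31 and 4.59 in HG, 4.83, 3.05 and 4.16 in LGV and 7.33, 7.16 and 6.5 in HGV. The HGV libraries were above all the others, by 0.76 (standard error 0.16, FDR 0.002) against HG and 0.78 (standard error 0.19, FDR 0.00391) against LGV. PFKM shares exon sequence on the other strand with SENP1. PFKP was the smallest subunit per kilobase in every library except LGV replicate 2, at 0.703% to 0.998% of the family in HG and 5.17% to 5.91% in LGV.

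The bifunctional PFKFB enzymes make and degrade the activator of phosphofructokinase, and their members followed different patterns. PFKFB2, an isozyme best known from heart, was measured at 23.7, 24.5 and 21.8 CPM in LG, 14.4, 11.7 and 11.7 in HG, 26, 21.5 and 23.2 in LGV and 17.7, 12.9 and 16.6 in HGV. High glucose libraries were lower than low glucose ones with and without VPA, at -0.60 (standard error 0.14, FDR 0.00292) and -0.87 (standard error 0.15, FDR 0.00051), with no call for VPA. PFKFB4 (chr3:48555117-48599448, GRCh37), known from testis and from tumours, was 15.2, 8.06 and 31.2 CPM in LG, 19.2, 19.2 and 14.9 in HG, 20.6, 18.9 and 14.7 in LGV and 30, 37.9 and 47.8 in HGV. HGV was above HG by 1.12 (standard error 0.17, FDR 0.000162) and above LGV by 1.08 (standard error 0.16, FDR 7.22e-05), while LG spanned 8.06 to 31.2 CPM and overlapped every other group. UCN2 shares exon sequence with PFKFB4 on the same strand. PFKFB3, the widely expressed isozyme with high kinase activity, was 8.64, 5.89 and 16.1 CPM in LG, 10.8, 5.5 and 5.96 in HG, 16.1, 15.8 and 9.93 in LGV and 17.1, 17.6 and 19.3 in HGV. It was higher in HGV than in HG by 1.28 (standard error 0.22, FDR 0.000409). Its other comparisons were not called. PFKFB1, the liver isozyme, lay between 0.873 and 1.92 CPM in the 12 libraries with no call, and it held the smallest share of the family per kilobase in each group, 6.26% to 7.91% in LG.

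**Figure D5:**
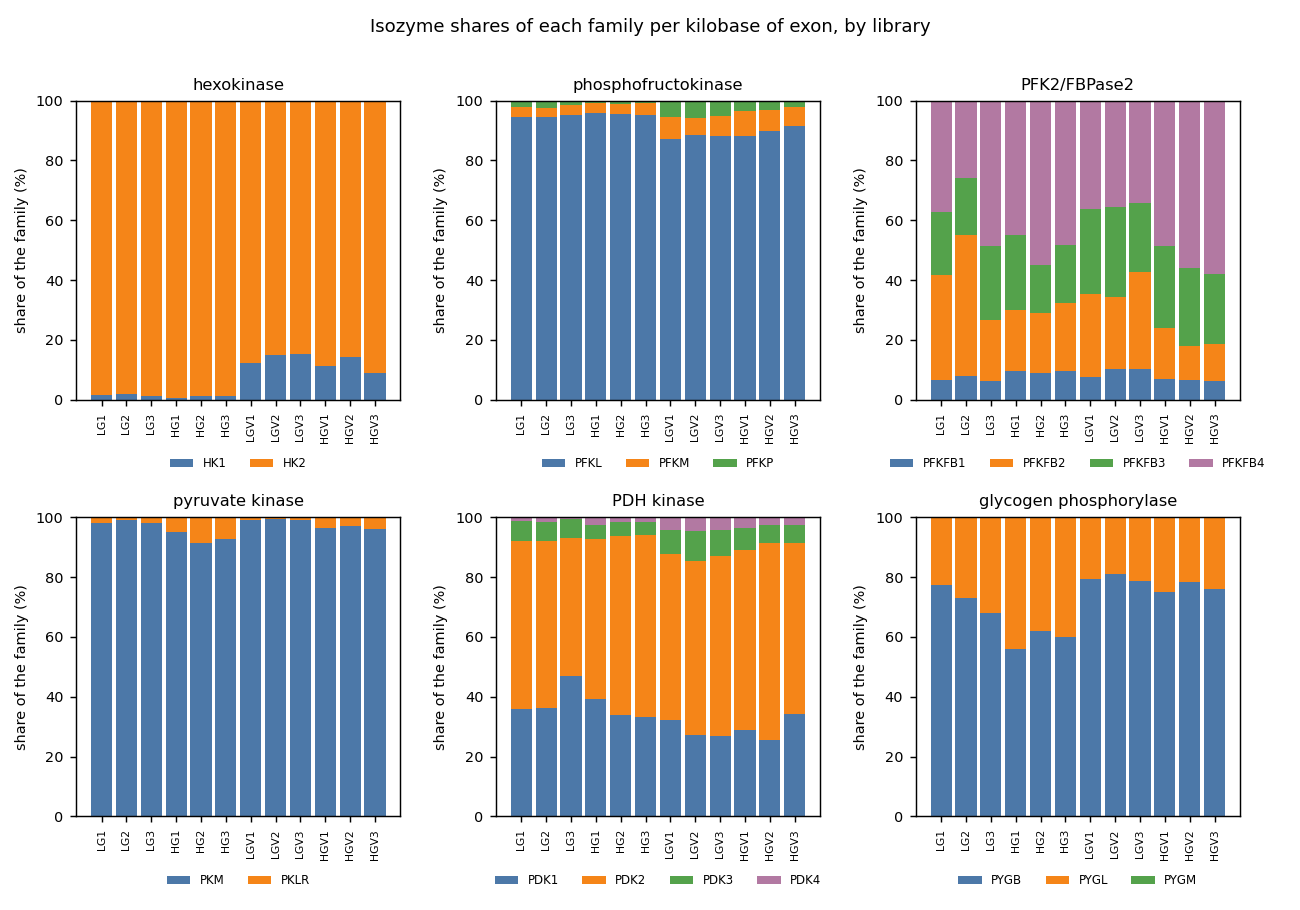
Share (%) of each isozyme in its family's summed level per kilobase of exon, in each of the 12 libraries, for 6 families. The HK1 segment is visible in the VPA-treated libraries (9.10% to 15.4%) and small elsewhere (0.72% to 1.85%), the PKLR segment is widest in HG (4.92% to 8.75%), and the PFKFB2 segment runs from 20.3% to 47.3% within LG.

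Lower glycolysis holds the most abundant members, and none of these was called higher in any comparison. Per kilobase of exon, GAPDH (575 to 585 CPM per kilobase), ENO1 (430 to 507) and ALDOA (297 to 344) were the highest members in LG. ALDOA, the widespread aldolase, was lower in HG than in LG, at -0.49 (standard error 0.12, FDR 0.00732) and lower in LGV than in LG, at -0.49 (standard error 0.13, FDR 0.0087). GAPDH, which oxidises glyceraldehyde phosphate, was 1390 ± 12.9 CPM (SD, n = 3) in LG and 1014 ± 55.5 CPM (SD, n = 3) in HG, a difference of -0.43 (FDR 0.0121). The call was lost without HG replicate 1 or HG replicate 3 (highest FDR 0.0644). PGAM1, phosphoglycerate mutase, was lower in HG, at -0.48 (FDR 0.042), a call lost without HG replicate 1, 2 or 3 or LG replicate 1 or 3, with the replicate block, with library size scaling and in a fit of the 12 libraries (highest FDR 0.175). GAPDH and PGAM1 have 65 and 13 named pseudogenes in the annotation, and reads shared with these were not examined.

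With VPA in low glucose, the log2 fold change was -0.56 (standard error 0.14, FDR 0.00455) for ENO1 and -0.33 (FDR 0.05) for TPI1, triose phosphate isomerase. The latter was at the threshold and was lost without LG replicate 1 or 3 or any LGV replicate and with other scalings (highest FDR 0.276). ENO2, the enolase best known from neurons, moved the other way, higher with VPA by 0.46 (standard error 0.12, FDR 0.00601) in low glucose and 0.53 (standard error 0.11, FDR 0.00123) in high glucose, and its share of the enolases went from 2.06% to 2.47% in LG to 3.91% to 5.14% in LGV. PGK1 (phosphoglycerate kinase), ENO3 (muscle enolase) and PKM (the pyruvate kinase of muscle and most tissues) were not called in any of the 4 comparisons, with log2 fold changes from -0.32 to 0.24 for PGK1, -0.30 to 0.23 for ENO3 and -0.29 to 0.13 for PKM. LDHA, which reduces pyruvate to lactate, stood at 656, 771 and 1073 CPM in LG, 778, 829 and 829 in HG, 517, 630 and 511 in LGV and 557, 707 and 743 in HGV. The LGV libraries lay below LG with a difference of -0.58 (standard error 0.17, FDR 0.0139), and the call was lost without LG replicate 3 or LGV replicate 3 and with library size scaling (highest FDR 0.0706).

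PKLR and ALDOC were the members of lower glycolysis that were higher with high glucose. Their upstream sequences are shown because each of these genes was called in both media pairs and carries the canonical E-box within 250 bases before its RefSeq start. The E-box is the CACGTG motif bound by basic helix-loop-helix factors. The sequences are from RefSeq on GRCh38.p14, given on the minus strand that both genes use, PKLR at chr1:155301439-155301688 and ALDOC at chr17:28576896-28577145. Capitals mark every E-box and every match to the core of the hypoxia response element, which was searched on both strands as ACGTG or GCGTG (the E-box holds the former).
PKLR: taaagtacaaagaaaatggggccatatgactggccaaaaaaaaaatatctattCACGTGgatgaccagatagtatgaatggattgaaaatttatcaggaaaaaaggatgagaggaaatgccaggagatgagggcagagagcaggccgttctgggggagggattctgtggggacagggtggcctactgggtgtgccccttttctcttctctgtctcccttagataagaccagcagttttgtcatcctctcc
ALDOC: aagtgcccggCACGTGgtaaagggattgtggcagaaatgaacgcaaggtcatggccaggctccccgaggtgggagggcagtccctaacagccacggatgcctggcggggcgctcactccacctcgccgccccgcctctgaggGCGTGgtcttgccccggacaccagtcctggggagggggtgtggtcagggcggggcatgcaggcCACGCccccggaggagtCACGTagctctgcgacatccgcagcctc
The E-box starts 197 bases before the RefSeq start of PKLR and 240 bases before that of ALDOC. Promoter windows from 250 bases before to 50 after the start were found for 46 of the 51 members, and 8 of them (17.4%) held an E-box, beside 7.26% of 35116 windows of the same length. The core of the hypoxia response element stood in 29 (63.0%), beside 48.4%. The windows set beside the members were not limited to genes of the count table and were not matched for base composition. Of the 8 members higher with high glucose in both pairs, 5 had a window (GCKR, ALDOC, PKLR, PDK2 and PCK2), and PKLR and ALDOC were the 2 with an E-box. A match describes the letters only and is not a bound site. RefSeq's table gives a single start per gene, and which start these cells use was not examined. For PKLR, whose enzyme is that of liver and red cells, the window shown may not be that of the liver transcript.

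PKLR encodes the pyruvate kinase of liver and red cells (chr1:155259084-155271229, GRCh37). It was measured at 5.05, 2.77 and 6.2 CPM in LG, 10.7, 23.2 and 18.1 in HG, 2.01, 1.92 and 2.24 in LGV and 8.06, 9.3 and 9.5 in HGV. Every high glucose library was above every low glucose library of the same VPA state, and each VPA group lay below the untreated group of its medium, with HGV still above LG. The log2 fold changes were 1.93 (standard error 0.27, FDR 7.8e-05) for HG against LG and 2.10 (standard error 0.19, FDR 3.45e-07) for HGV against LGV, and -1.17 (standard error 0.28, FDR 0.00375) and -0.96 (standard error 0.22, FDR 0.00383) for VPA in low and high glucose. PKLR was the minor pyruvate kinase beside PKM, with 0.992% to 2.06% of the family per kilobase in LG, 4.92% to 8.75% in HG, 0.693% to 0.83% in LGV and 3.14% to 3.9% in HGV. HCN3 overlaps PKLR exons on the other strand, and the strand setting of the counting is not stated. HCN3 was higher in HG than in LG by 0.78 (FDR 0.0034) and in HGV than in LGV by 0.49 (FDR 0.00838), and it was not called for VPA, with log2 fold changes of 0.37 and 0.12. Its part in the PKLR counts was not tested.

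ALDOC, the aldolase best known from brain (chr17:26900133-26903966, GRCh37), was 7.93, 4.57 and 10 CPM in LG, 9.67, 13.4 and 11.8 in HG, 8.34, 8.93 and 7.45 in LGV and 15.6, 22.9 and 26.2 in HGV. HGV was the highest group, above HG by 0.89 (standard error 0.19, FDR 0.00177) and above LGV by 1.37 (standard error 0.17, FDR 1.35e-05). HG exceeded LG by 0.66 (standard error 0.23, FDR 0.0428), but 1 HG library lay below 1 LG library, and the call was lost without LG replicate 1, LG replicate 2 or any HG replicate and with library size scaling (highest FDR 0.14). Of the summed level of ALDOA and ALDOC per kilobase, ALDOC held 0.586% to 1.1% in LG and 3.2% to 3.95% in HGV.

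Pyruvate dehydrogenase commits pyruvate to the mitochondrial cycle, and its kinases switch it off. PDHA1, a subunit of its first enzyme, was higher in HGV than in HG by 0.35 (FDR 0.0112). PDHB, the other subunit, was lower in LGV than in LG, at -0.73 (standard error 0.13, FDR 0.000352) and higher in HGV than in LGV by 0.53 (standard error 0.11, FDR 0.00126), with LGV at 44 to 44.4 CPM and the other libraries at 60.5 to 86.6. PDK2 was the largest of the kinases per kilobase in every library except LG replicate 3, with 45.8% to 56.1% in LG and 57% to 65.9% in HGV. This order rests on the annotated exon lengths, 14845 bases for PDK1 and 5471 for PDK2, since PDK1 had more CPM in every library. Which transcripts these cells use was not examined.

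The 4 kinases did not move alike. PDK2 stood at 13, 9.98 and 12.8 CPM in LG, 16.6, 17 and 16.7 in HG, 15.1, 14 and 14.5 in LGV and 19.7, 25.5 and 21.4 in HGV. It was higher with high glucose, by 0.52 (standard error 0.16, FDR 0.0247) without VPA and 0.59 (standard error 0.14, FDR 0.00228) with it, and higher in HGV than in HG by 0.40 (FDR 0.0187). The first call was lost without HG replicate 2, HG replicate 3 or LG replicate 2 (highest FDR 0.0838) and the last without HG replicate 3 or HGV replicate 2 (highest FDR 0.0684). SAMD14, which shares exon sequence with PDK2 on the other strand, was higher with VPA by 2.36 and 3.30. PDK3 was 5.05, 3.64 and 5.87 CPM in LG, 4.63, 4.22 and 3.58 in HG, 6.9, 7.47 and 6.65 in LGV and 7.54, 7.49 and 7.35 in HGV, and higher with VPA by 0.54 (standard error 0.21, FDR 0.0487) in low and 0.85 (standard error 0.15, FDR 0.000671) in high glucose. The former call was lost without LG replicate 1 or 2 or any LGV replicate (highest FDR 0.153). PDK1 was 22.6, 17.7 and 35.7 CPM in LG, 33.3, 26.2 and 24.8 in HG, 24, 17.8 and 17.7 in LGV and 25.8, 26.7 and 35.1 in HGV. Its only call was HGV against LGV, 0.54 (standard error 0.15, FDR 0.00886), lost without HGV replicate 3 or LGV replicate 3 (highest FDR 0.0625).

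PDK4, a kinase known to be induced in fasting, had few reads, with 5 to 9 per LG library, 12 to 21 in HG, 29 to 33 in LGV and 26 to 36 in HGV. Its values were 0.224, 0.225 and 0.128 CPM in LG, 0.666, 0.359 and 0.392 in HG, 0.99, 0.942 and 0.881 in LGV and 0.981, 0.856 and 0.765 in HGV. LGV lay above LG by 2.29 (standard error 0.38, FDR 0.000218). PDK4 passed the filter of a mean of 10 reads against LG only through the HG or LGV libraries, since every LG library held fewer, so a gene at this level in LG could be tested only if it was higher in the other group. The differences of 1.31 (standard error 0.44, FDR 0.0343) for HG against LG and 0.88 (standard error 0.33, FDR 0.0435) for HGV against HG were each lost under the DESeq2 Wald test. The former was also lost without HG replicate 3 or any LG replicate, and the latter without HG replicate 2 or 3 or any HGV replicate (highest FDR 0.12 and 0.148). Without HG replicate 1 the mean over HG and LG fell below 10 reads, and HG against LG was not tested for PDK4.

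Gluconeogenesis was the role with the most members higher in high glucose: 4 of 6 in HG against LG and 0 lower, beside 12.0% higher and 12.7% lower of all genes. Of these 4, the calls of PCK1 and FBP1 were lost under alternatives, as given with their values. With VPA in low glucose 4 of 6 were lower, beside 19.9% of all genes. In the same comparison 5 of the 8 hepatocyte-like markers were lower and 0 higher, and in HG against LG 2 were higher and 1 lower. The part of what moved these markers was not tested. G6PC, the glucose-phosphatase that lets liver release glucose (chr17:41052814-41066455, GRCh37), was 85.6, 76.6 and 45.6 CPM in LG, 117, 189 and 153 in HG, 41.5, 55.6 and 31.5 in LGV and 83.2, 99.5 and 93 in HGV. High glucose libraries were above low glucose ones in both VPA states, by 1.18 (standard error 0.19, FDR 0.000304) and 1.08 (standard error 0.16, FDR 5.9e-05). G6PC was lower with VPA in high glucose, at -0.74 (standard error 0.15, FDR 0.00166). In low glucose the difference was -0.68 (standard error 0.22, FDR 0.0208), where LG and LGV overlapped and the call was lost without LG replicate 1 or LGV replicate 1 or 3 and with library size scaling (highest FDR 0.145). G6PC3, the widespread phosphatase, stood at 42.5, 26.2 and 45.3 CPM in LG, 34, 41.9 and 41.8 in HG, 26.6, 22 and 20.4 in LGV and 31.2, 37.9 and 39.7 in HGV. LGV was the lowest group, at -0.71 (standard error 0.18, FDR 0.00639) against LG, with 1 LG and 1 LGV library overlapping and the call lost with library size scaling (FDR 0.0613). HGV was above LGV by 0.64 (standard error 0.14, FDR 0.00131).

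The carboxykinases make phosphoenolpyruvate, PCK1 in the cytosol and PCK2 in the mitochondrion. PCK2 (chr14:24563262-24579807, GRCh37) was 496, 280 and 615 CPM in LG, 671, 823 and 808 in HG, 213, 127 and 148 in LGV and 510, 600 and 503 in HGV. It was the main form per kilobase, 94.6% to 97.5% of the pair in LG and 85.9% to 91.5% in LGV, and its LGV libraries were the lowest of the 12. It was higher with high glucose, by 0.75 (standard error 0.19, FDR 0.00878) without VPA and 1.71 (standard error 0.17, FDR 9.93e-07) with VPA. It was lower with VPA, at -1.50 (standard error 0.25, FDR 0.000195) in low and -0.51 (standard error 0.12, FDR 0.00365) in high glucose, the last lost in a fit of the 12 libraries (FDR 0.0544). PCK1 (chr20:56136136-56143177, GRCh37), the classical target of fasting hormones, stood at 36.2, 26.1 and 25.6 CPM in LG, 49.6, 38.5 and 36.5 in HG, 32.3, 34.1 and 29.4 in LGV and 74.6, 60.7 and 80.6 in HGV. The HGV libraries were the highest, above HG by 0.79 (standard error 0.14, FDR 0.000636) and above LGV by 1.15 (standard error 0.13, FDR 4.39e-06). HG exceeded LG by 0.53 (standard error 0.16, FDR 0.0212), a call lost without HG replicate 1 or LG replicate 2 (highest FDR 0.111). VPA in low glucose gave 0.14 (FDR 0.481). PCK2 was thus called lower with VPA in both media and PCK1 higher in high glucose, and the difference between the genes was not tested.

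PC, pyruvate carboxylase, which starts the pathway in the mitochondrion, was 158, 129 and 149 CPM in LG, 106, 119 and 118 in HG, 93.4, 104 and 103 in LGV and 79.9, 81.7 and 68.9 in HGV. All VPA-treated libraries lay below all untreated ones, at -0.53 (standard error 0.12, FDR 0.00236) in low and -0.58 (standard error 0.10, FDR 0.000684) in high glucose. HGV was below LGV, at -0.40 (standard error 0.12, FDR 0.0122), a call lost without HGV replicate 3 or LGV replicate 2 or 3 (highest FDR 0.0756). LRFN4, which shares exon sequence with PC on the other strand, was also lower with VPA, at -0.52 and -1.17. FBP1, fructose bisphosphatase, was low, at 0.86, 0.798 and 1.05 CPM in LG, 1.62, 1.47 and 1.65 in HG, 1.29, 0.877 and 0.907 in LGV and 0.797, 2.5 and 0.97 in HGV. It had 105 reads in HGV replicate 2 against 26 and 33 in the other HGV libraries. HG exceeded LG by 0.82 (standard error 0.27, FDR 0.0329). This call was lost under the DESeq2 Wald test, the replicate block, a fit of the 12 libraries and without LG replicate 1, LG replicate 2 or any HG replicate (highest FDR 0.103).

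In the pentose phosphate pathway, 4 of 6 members were lower with VPA in low glucose and 3 in high glucose, beside 19.9% and 20.2% of all genes, and 0 were higher. Of the 4, the call of TALDO1 was lost under several alternatives. PGLS, the lactonase of the oxidative branch, was 46.8, 39 and 40 CPM in LG, 37.7, 44.3 and 42.1 in HG, 21.2, 22.9 and 20.1 in LGV and 20.8, 26.4 and 22.3 in HGV. The untreated libraries (37.7 to 46.8 CPM) and the VPA-treated ones (20.1 to 26.4 CPM) did not overlap, and the log2 fold changes were -0.96 (standard error 0.13, FDR 2.96e-05) and -0.84 (standard error 0.12, FDR 0.000134). PGD, the dehydrogenase that yields NADPH, was lower, at -0.77 (FDR 0.000146) and -0.46 (FDR 0.00283), and RPIA, the ribose isomerase, at -0.60 (FDR 0.0012) and -0.48 (FDR 0.00241). TALDO1, transaldolase, was lower in LGV than in LG, at -0.40 (FDR 0.0207) and in HG than in LG, at -0.40 (FDR 0.0316). The former call was lost without LG replicate 1 or 3 or LGV replicate 2 or 3. The latter was lost without LG replicate 1 or 3 or any HG replicate and with the replicate block, and both were lost with library size scaling (highest FDR 0.196 and 0.133). RPE and TKT, of the branch that recycles pentoses, had no call, with log2 fold changes with VPA of 0.25 and 0.23 and of 0.02 and 0.18. With high glucose, TALDO1 was the 1 member of 6 called in HG against LG, beside 24.7% of all genes called in either direction. In HGV against LGV 0 of 6 were called, beside 40.7% of all genes.

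In glycogen synthesis, 3 of 6 members were lower and 1 was higher with VPA in low glucose, beside 19.9% and 21.7% of all genes, and 2 were lower and 2 higher in high glucose, beside 20.2% and 25.8%. GBE1, the branching enzyme, was 34, 42.1 and 41.6 CPM in LG, 32.3, 33.7 and 32.2 in HG, 15.8, 21.8 and 20.8 in LGV and 14.1, 13.3 and 16.5 in HGV. All VPA-treated libraries lay below all untreated ones, at -1.0 (standard error 0.15, FDR 8.92e-05) in low and -1.16 (standard error 0.12, FDR 6.87e-06) in high glucose. HGV was below LGV, at -0.43 (FDR 0.0294) with overlapping libraries, a call lost without HGV replicate 1 or 2 or LGV replicate 2 or 3 and with library size scaling (highest FDR 0.139). PGM1, which moves phosphate between positions of glucose and links glycogen to glycolysis, was 168, 186 and 165 CPM in LG, 138, 144 and 149 in HG, 87.8, 98.4 and 91.7 in LGV and 71, 92.7 and 71.8 in HGV. The untreated libraries (138 to 186 CPM) stood above the VPA-treated ones (71.0 to 98.4 CPM), at -0.89 (standard error 0.11, FDR 2.27e-05) and -0.87 (standard error 0.12, FDR 6.86e-05). Its share of the pair with PGM2 went from 88.9% to 92.4% in LG to 75.9% to 79.9% in LGV.

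PGM2 was higher with VPA, by 0.58 (FDR 0.00781) and 0.46 (FDR 0.016). The former call was lost without LGV replicate 3, the latter without HG replicate 2 or 3 or HGV replicate 1 or 3 (highest FDR 0.0567 and 0.0733). UGP2, which makes UDP-glucose, was lower with high glucose, at -0.58 (FDR 0.00459) without VPA and -0.72 (FDR 0.000452) with it, the former lost without HG replicate 3 (FDR 0.055). GYS1, the synthase of muscle and most tissues, was higher in HGV than in LGV by 0.80 (FDR 0.000377) and than in HG by 0.45 (FDR 0.00822), the latter lost without HG replicate 3 and in a fit of the 12 libraries (highest FDR 0.11). GYG1, the primer glycogenin, was lower in LGV than in LG, at -0.72 (standard error 0.12, FDR 0.000222).

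The phosphorylases release glucose from glycogen. PYGL, the liver form, was 113, 122 and 125 CPM in LG, 139, 131 and 133 in HG, 71.6, 70.2 and 82.2 in LGV and 73.2, 68.6 and 67.1 in HGV. Its untreated libraries (113 to 139 CPM) lay above the VPA-treated ones (67.1 to 82.2 CPM), with log2 fold changes of -0.67 (standard error 0.12, FDR 0.000314) and -0.95 (standard error 0.09, FDR 5.64e-06). PYGB, the brain form, stood at 376, 326 and 259 CPM in LG, 172, 211 and 196 in HG, 272, 296 and 298 in LGV and 218, 249 and 211 in HGV. It was lower with high glucose, at -0.71 (standard error 0.14, FDR 0.00146) without VPA and -0.37 (standard error 0.12, FDR 0.0215) with it, the latter lost without HGV replicate 1 or 3 or LGV replicate 2 or 3 (highest FDR 0.102).

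The mix of phosphorylases differed between groups accordingly. PYGL held 22.8% to 32.1% of the family per kilobase in LG, 37.8% to 44.2% in HG, 18.8% to 21.3% in LGV and 21.2% to 24.7% in HGV, and PYGB held most of the rest. PYGM, the muscle form, had few reads, with 2, 17 and 4 reads in LG, 4, 7 and 8 in HG, 17, 14 and 20 in LGV and 13, 47 and 26 in HGV. Its values were 0.0748, 0.424 and 0.102 CPM in LG, 0.127, 0.209 and 0.224 in HG, 0.51, 0.455 and 0.534 in LGV and 0.399, 1.12 and 0.765 in HGV, and HGV was above HG by 2.02 (standard error 0.46, FDR 0.00315). PYGM passed the filter of a mean of 10 reads in that comparison only through the HGV libraries, since every HG library held fewer, so it could be tested only by being higher in HGV.

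KHK, ketohexokinase, brings fructose into the pathway (chr2:27309640-27323630, GRCh37). It was measured at 50.8, 37.5 and 44.8 CPM in LG, 51, 73.4 and 62.2 in HG, 51, 42.5 and 40.5 in LGV and 92.2, 108 and 102 in HGV. HGV was the highest group, above HG by 0.69 (standard error 0.13, FDR 0.000932) and above LGV by 1.16 (standard error 0.13, FDR 3.02e-06), and LGV did not separate from LG (FDR 0.914). HG exceeded LG by 0.52 (standard error 0.15, FDR 0.0196), lost without HG replicate 2, HG replicate 3 or LG replicate 2 (highest FDR 0.132). CGREF1 shares exon sequence with KHK on the other strand and was higher by 0.78 in HG against LG and by 1.39 in HGV against LGV. In all, 17 of 51 members have exons that overlap another gene of the table, 2 on the same strand and 15 on the other, and the part of these genes in the members' counts was not tested.

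Whether the VPA effect differed between the media was tested with the interaction over the 12 libraries. Of 51 members 0 were called by edgeR, beside 0.0244% higher and 0.0183% lower of 16389 genes, and 0 by the DESeq2 Wald test, which called 161 genes in all. At an unadjusted p under 0.05 there were 13 members (25.5%), beside 1852 genes (11.3%). The interaction's log2 estimate was positive, that is, VPA gave a higher value relative to its control in high glucose than in low, for 40 of 51 members (78.4%), beside 54.3% of all genes, with a median of 0.32 against 0.04. This lean was not particular to the module, as 7 of the 8 hepatocyte-like markers were positive too, with a median of 0.28. Among 35 other genes of these pathways 22 were positive, with a median of 0.09. Without LG replicate 2, PCK2 (1.23, standard error 0.24, FDR 0.0208) and PFKFB4 (1.46, standard error 0.31, FDR 0.0248) were called, against 1.0 (standard error 0.30, FDR 0.178) and 1.13 (standard error 0.42, FDR 0.289) with all libraries. Calls such as those of PFKFB3, PFKFB4, PFKM, ALDOC, PCK1 and KHK in HGV against HG but not in LGV against LG are therefore not shown to differ between the media.

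Of 42 other genes of these pathways (further lactate and pyruvate steps, the pyruvate carrier, further pentose phosphate genes, glycogen control), 35 were in the table. In HG against LG, 3 of 34 tested were higher (8.82%) and 1 was lower (2.94%), beside 12.0% and 12.7% of all genes. H6PD, the hexose phosphate dehydrogenase of the endoplasmic reticulum, was higher by 0.86 (FDR 0.00064), PPP1R3C, a glycogen-targeting phosphatase subunit, by 1.0 (FDR 0.00909), and PHKG2, a phosphorylase kinase subunit, lower, at -0.55 (FDR 0.00858). In HGV against LGV, 10 of 35 were higher, beside 21.2% of all genes, led by H6PD, 1.75 (FDR 3.45e-07), and LDHD, a lactate dehydrogenase of the mitochondrion, 2.37 (FDR 3.45e-07). In the other direction 4 were lower, beside 19.5%, led by C12orf5, -0.56 (FDR 0.00187), and GSK3B, a kinase of glycogen synthase, -0.45 (FDR 0.0109). With VPA in low glucose, 7 were higher (20%) and 9 lower (25.7%), beside 21.7% and 19.9% of all genes. MDH1, the cytosolic malate dehydrogenase, was at 0.86 (FDR 5.47e-05) and BPGM, bisphosphoglycerate mutase, at 1.23 (FDR 5.99e-05), with H6PD at -1.66 (FDR 1.13e-05) and EPM2A, the glycogen phosphatase laforin, at -1.18 (FDR 0.000443). In high glucose, 9 were higher with VPA (25.7%) and 7 lower (20%), beside 25.8% and 20.2%, with LDHD at 1.79 (FDR 1.09e-06), MDH1 at 1.07 (FDR 3.81e-06), EPM2A at -1.27 (FDR 2.51e-05) and PHKA1, a phosphorylase kinase subunit, at -0.91 (FDR 6.91e-05). Of the 13 glycogen control genes, 5 were lower (38.5%) and 0 higher with VPA in each medium, and 0 of the 35 passed the interaction.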

How the data were processed

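Reads of 12 HepG2 libraries had been processed by the authors, who demultiplexed with bcl2fastq 2.17.1.14, trimmed low quality ends, aligned with STAR to GRCh37 and used featureCounts for each Ensembl gene. The deposited values are raw counts of 16389 genes. Genes averaging under 10 reads had been dropped, and the lowest row mean was 10. The strand setting is not stated. Totals were 29798442 to 45572694 counts per library, which limits precision for members of a few reads.

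The test was that of edgeR 4.0.16, run in R 4.3.3 (TMM factors, quasi-likelihood F test, mean count of at least 10 in the libraries compared, FDR of 0.05 over all genes). Each comparison used its own 6 libraries, and the interaction all 12. The standard error was the log2 fold change divided by the square root of F. In simulated data, changes of 2-fold were recovered for 151 of 197 genes in HG against LG (15331 genes) and for 90 of 198 in the interaction (16262 genes). False calls were 9 of 160 (5.62%) in the former and 9 of 99 (9.09%) in the interaction, above the nominal FDR of 0.05 in both. Alternatives were DESeq2 1.42.0, other scaling, no filter, FDR 0.01, a replicate block, a joint fit and leaving out each library.

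The members and lists were chosen with earlier results of these data known. Values per library are given for called members among the 8 largest non-overlapping changes of a comparison and for called members of the phosphofructokinase, PFKFB, pyruvate kinase, LDHA, PDK, gluconeogenesis and phosphorylase groups. Of other pathway genes, the 2 of smallest p per direction were named. Levels between genes used GENCODE exon length, and promoters came from RefSeq.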

Additional observations from a re-analysis of the deposited data

How the results depend on the processing

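No called member reversed direction under any alternative. Calls kept under every setting other than the FDR of 0.01 were 8 of 19 in HG against LG (ALDOA, G6PC, GCKR, HK1, PCK2, PFKFB2, PKLR and PYGB), 21 of 26 in HGV against HG, 19 of 26 in LGV against LG and 17 of 21 in HGV against LGV. At an FDR of 0.01, HG against LG held 4 higher and 5 lower members, and HGV against LGV 3 lower. Leaving out 1 library gave 4 to 14 higher (4 without LG replicate 2, 5 without HG replicate 3, 6 without HG replicate 1 or 2, 14 without LG replicate 3) and 4 to 10 lower (4 without HG replicate 3) in HG against LG, 3 to 7 lower in HGV against LGV (3 without LGV replicate 2 or 3) with 14 to 16 higher, 12 to 17 higher and 10 to 15 lower in HGV against HG, 4 to 9 higher and 16 to 21 lower in LGV against LG, and 0 to 2 in the interaction (2 without LG replicate 2). The causes were not tested, beyond the fewer libraries. Deviations from the group mean correlated weakly between libraries of the same number (mean r from -0.078 to 0.086, 3 pairs per comparison). Single pairs ran from -0.201 to 0.295, and these pairs are too few to show whether the numbers pair the libraries. With a replicate block, members higher and lower were 9 and 7 in HG against LG, 18 and 11 in HGV against HG, 7 and 21 in LGV against LG, 17 and 6 in HGV against LGV, and 0 in the interaction. Members of few reads (PDK4, FBP1, PYGM) are limited by depth.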
